A study of Hordeum vulgare with 22 samples.

Results

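The step from Waddington stage W3.5 to stage W5.0 was followed in young inflorescences of the barley (Hordeum vulgare) line mnd1.a, which is near-isogenic to the cultivar Bowman and carries the mnd1.a allele, with a wild-type Bowman series beside it. The Waddington scale orders the development of the cereal spike; W3.5 is the stage of stamen primordia, and W5.0 is named as the awn primordium stage in the headers of the table. The members are 7 of the 22 libraries of the series, 4 from mnd1.a at W5.0 and 3 from mnd1.a at W3.5, chosen by line and stage, and all genes of the table are described. The same step in Bowman, with 4 libraries at W5.0 and 4 at W3.5, is used to show where mnd1.a differs, and 3 libraries of each line at W2.0 entered the model fit. All plants stood in long days, and each sample held the inflorescence with its base and the small leaves under it. A shoot apex sample of the cultivar Mesa was not analysed here. Nothing in the labels says that the libraries of a group came from separate plants or poolings, so the p-values measure only how these samples spread, and that may be technical.

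Many-noded dwarf mutants of barley are known for initiating leaves quickly and for stems with many nodes, and MND1 encodes a protein of the acyl-CoA N-acyltransferase superfamily. Between the stamen primordium and the awn primordium stage a cereal floret lays down its organs, and MADS-box transcription factors of several classes act together to give these organs their identity: E-class (SEPALLATA) and AGL6 proteins act as partners in all of them, B-class proteins in lodicules and stamens, and C-class proteins in stamens and carpels. Relatives of TERMINAL FLOWER 1 act in the opposite sense in Arabidopsis and rice, where they keep the inflorescence meristem from turning into a flower. Because whole tissue was sequenced, fewer cells of a type and less RNA per cell cannot be told apart in any value below.

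Estimated counts per library summed to between 12161397 and 13217655 at W5.0 and between 13062124 and 16054012 at W3.5. The group spread was small, with a median standard deviation of 0.148 over genes on the log2 scale of CPM, the count scaled to a fixed total per library, at W5.0 and of 0.188 at W3.5. One library stood apart. The mnd1.a W3.5 replicate 3 differed from replicates 1 and 2 with chi-square values per gene of 17.2 and 18.7, while replicates 1 and 2 differed from each other by 3.26 and the pairs of W5.0 libraries by 3.09 to 4.46. It lay toward W5.0 for many floral genes, and the counts without it are given below. In the sample titles, the code of a library begins with 1328 for mnd1.a W5.0 and for both W2.0 groups, 10 libraries, and with 1327 for mnd1.a W3.5 and both other Bowman groups, 11 libraries. The sources used here do not say what the code stands for, and in mnd1.a the code and the stage change together and cannot be told apart.

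Transcripts that read as ribosomal RNA (their annotations name a senescence-associated protein or an intron-encoded endonuclease of rRNA) moved with this code. Their summed level was 22170.0 to 25461 CPM in the mnd1.a W5.0 libraries, against 2044 to 3035 CPM in the mnd1.a W3.5 libraries. In Bowman, where the code stays at 1327, the sums were 1988 to 3309 CPM at W5.0 and 2274 to 2690.0 CPM at W3.5, and at W2.0, under code 1328, they were 11966 to 14851 CPM in mnd1.a and 17936 to 26936 CPM in Bowman. Of 75 such transcripts tested, 67 were called higher in mnd1.a at W5.0 and 0 lower, and 61 of the 67 separate all 21 libraries by code alone. The same holds for 12 of 21 organelle-encoded products called higher, such as the photosystem II protein D1 (HORVU2Hr1G121820, log2 fold change 4.24, adjusted p = 0.00132). Over all genes tested, 369 separate the 21 libraries by code, and 218 of these are among the genes called in the step.

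**Figure D1:**
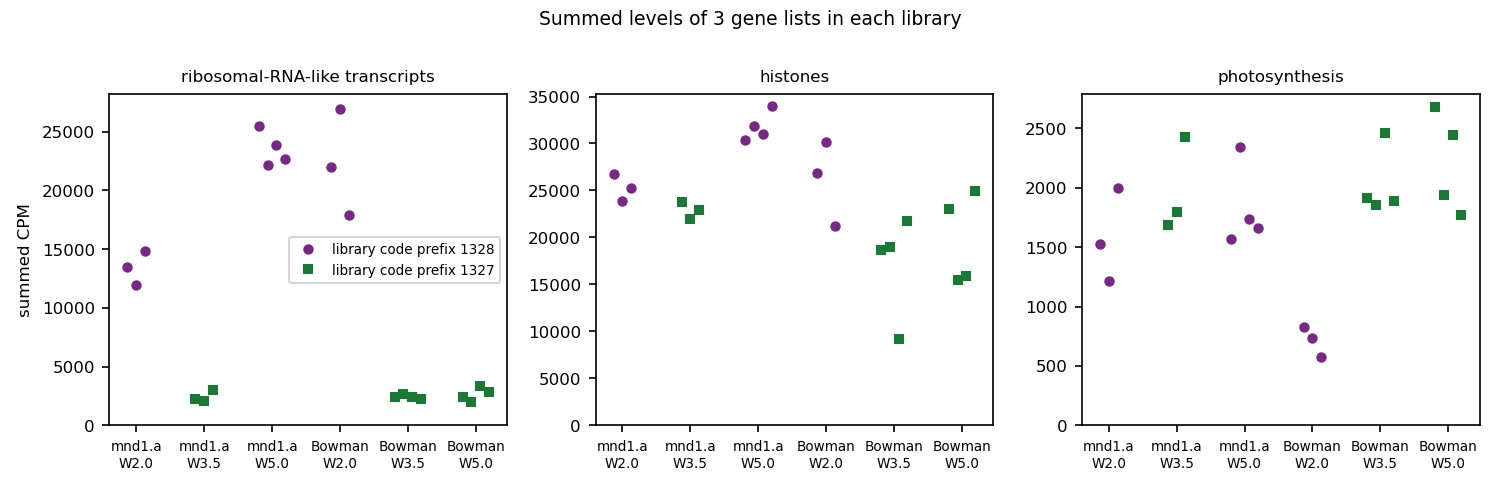
Summed CPM of 3 gene lists in each library, one panel per list, with the 3 stages of mnd1.a and then of Bowman on the horizontal axis and the summed level in CPM on the vertical axis; purple circles are libraries coded 1328 and green squares libraries coded 1327. Ribosomal-RNA-like transcripts are high in every 1328 library, histones reach 30398 to 34013 CPM in mnd1.a W5.0, and photosynthesis genes overlap between mnd1.a W5.0 and W3.5.

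MND1 itself (HORVU7Hr1G113480, chromosome 7H, 637080378 to 637082097) was checked first. It had 6.02, 2.39, 5.90 and 6.00 CPM in the mnd1.a W5.0 libraries, against 4.55, 4.13 and 3.48 CPM in the mnd1.a W3.5 libraries. The groups overlapped, and a log2 fold change of 0.33 missed the threshold (SE 0.39, adjusted p = 0.643). The mnd1.a mean of 5.08 ± 1.79 CPM at W5.0 (SD, n = 4) lay under the Bowman mean of 12.7 ± 4.60 CPM (SD, n = 4) at that stage, and the mnd1.a mean of 4.05 ± 0.541 CPM at W3.5 (SD, n = 3) under the Bowman mean of 21.2 ± 7.55 CPM (SD, n = 4).

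Of 21132 genes tested, 2140 (10.1%) were called changed between W5.0 and W3.5 in mnd1.a at an adjusted p under 0.05 (edgeR's quasi-likelihood test, Benjamini-Hochberg). 1082 (5.12%) were higher and 1058 (5.01%) lower at W5.0, and 848 (4.01%) differed at least 2-fold, 528 of them higher and 320 lower. The shares of 5.12% and 5.01% are the background for the list counts below. At an unadjusted p under 0.05 in edgeR, 5435 of the 21132 genes passed in either direction, the background for unadjusted list counts. The 7 libraries of the groups did not overlap for 2053 of the 2140 called genes, beside 6145 (29.1%) of the 21132 genes tested. Since most called genes lack overlap, its absence adds little to a call. The median absolute log2 fold change of the called genes was 0.77, and the median over all genes was -0.004. The count leaned on the libraries at W3.5: it was 925 without replicate 1, 796 without replicate 2 and 2741 without replicate 3 of that group. 664 genes, 363 higher and 301 lower, were called in each of the 7 fits that leave out a single library of the step.

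MADS-box genes held the highest share of higher calls among the transcription factor lists. Of 35 members tested, 15 (42.9%) were higher and 3 (8.57%) lower at W5.0, beside 5.12% and 5.01% of all genes. The median log2 fold change was 0.75, and a further 6 members of the table fell to the filter on low counts. Without W3.5 replicate 3 the counts were 17 higher and 1 lower, without W3.5 replicate 1 or replicate 2 they were 10 and 9 higher and 0 lower, and without any single W5.0 library they were 14 higher and 1 lower.

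The E-class and AGL6 genes had few or no reads at W3.5 and a clear level at W5.0. MADS1 (HORVU4Hr1G067680, chromosome 4H, 561493713 to 561502133), whose rice counterpart specifies the lemma, palea and floret meristem, had 41.7, 48.2, 45.6 and 68.1 CPM at W5.0, against 0.142, 0 and 2.68 CPM at W3.5. All 4 W5.0 libraries lay above all W3.5 libraries, among which replicate 3 was the highest (log2 fold change 5.61, SE 1.02, adjusted p = 0.00239). MADS7 (HORVU7Hr1G054220) had 30.9, 40.7, 27.5 and 41.9 CPM at W5.0, against 0.142, 0 and 1.10 CPM at W3.5. MADS8 (HORVU5Hr1G076400) had 20, 24.2, 19.3 and 29.0 CPM at W5.0, against 0.142, 0.0795 and 1.04 CPM at W3.5. MADS7 and MADS8, the SEPALLATA3-type pair of cereals, rose by log2 fold changes of 6.25 (SE 1.08, adjusted p = 0.00242) and 5.64 (SE 0.86, adjusted p = 0.000517), with no overlap of the groups.

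MADS6 (HORVU6Hr1G066140), the AGL6-type gene that acts beside MADS1 in the rice floret, had 15.0, 21.8, 16.3 and 21.7 CPM at W5.0 and 0 counts in each W3.5 library. It was at least 272-fold higher at W5.0 against a floor of 3 counts over the W3.5 group (adjusted p = 0.00363 in edgeR, 0.0667 in limma-voom). MADS5 (HORVU7Hr1G025700) had 21.3, 23.6, 17.5 and 31.3 CPM at W5.0, against 0.284, 0 and 1.83 CPM at W3.5. MADS34 (HORVU5Hr1G095710), a grass SEPALLATA gene that acts on inflorescence branching and spikelet meristems in rice, had 6.84, 7.57, 6.43 and 9.94 CPM at W5.0, against 0.356, 0.795 and 1.46 CPM at W3.5. Both genes separated the groups, MADS5 with a log2 fold change of 4.91 (SE 0.95, adjusted p = 0.00397) and MADS34 with 3.09 (SE 0.75, adjusted p = 0.0157). Limma-voom called neither (adjusted p = 0.0769 for MADS5 and 0.0568 for MADS34), and MADS34 was also not called without W3.5 replicate 1 or 2.

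The B-class and C-class genes described here rose in the same libraries, but all except MADS16 were named after their values were seen. The B-class gene MADS16 (HORVU7Hr1G091210, the APETALA3 type) had 17.6, 23.0, 18.9 and 27.5 CPM at W5.0, against 0, 0.318 and 1.46 CPM at W3.5 (log2 fold change 5.08, SE 0.88, adjusted p = 0.00159). MADS4 (HORVU1Hr1G063620, the PISTILLATA type) had 27.5, 30.6, 28.1 and 36.3 CPM at W5.0, against 0.498, 0.954 and 2.75 CPM at W3.5, and rose by 4.39 on the log2 scale (SE 0.77, adjusted p = 0.00193). MADS2 (HORVU3Hr1G091000), the second PISTILLATA-type gene, rose by 3.11 (SE 0.45, adjusted p = 0.000191). The C-class genes MADS3 (HORVU3Hr1G026650) and MADS58 (HORVU1Hr1G029220) reached 2.80 to 5.83 CPM and 4.54 to 6.18 CPM at W5.0, against at most 0.732 and 1.10 CPM at W3.5. Their log2 fold changes were 3.75 (adjusted p = 0.0103) and 3.63 (adjusted p = 0.0105), and neither was called without W3.5 replicate 1 or 2.

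Of the APETALA1/FRUITFULL-type genes, which mark the floral transition in cereals, 3 are described. MADS15 and MADS18, both called higher, were named after their values were seen, and VRN-H1 was set beforehand. MADS15 (HORVU2Hr1G063800) had 77.5, 74.3, 72.4 and 81.4 CPM at W5.0, against 7.68, 9.54 and 37.5 CPM at W3.5. Replicate 3 of W3.5 sat between the others of its group and W5.0, and the call (log2 fold change 2.05, SE 0.58, adjusted p = 0.0347) held in 1 of the 7 fits that leave out a library, the one without that replicate. MADS15 was also not called in edgeR from only the 10 mnd1.a libraries (adjusted p = 0.0783) or only the 2 groups (adjusted p = 0.0572). MADS18 (HORVU2Hr1G069820) averaged 11.1 ± 0.853 CPM at W5.0 (SD, n = 4) and 3.83 ± 2.40 CPM at W3.5 (SD, n = 3), a log2 fold change of 1.51 (adjusted p = 0.0211) that was not called without W3.5 replicate 1 or 2. VRN-H1 (HORVU5Hr1G095630, annotated MADS14), the vernalization gene, had 197 ± 12 CPM at W5.0 (SD, n = 4) and 138 ± 10.2 CPM at W3.5 (SD, n = 3) with no overlap. Its log2 fold change of 0.51 missed the threshold in edgeR (adjusted p = 0.0716) and passed it in DESeq2 (adjusted p = 0.0349) and in edgeR from only the 2 groups (adjusted p = 0.000929), from only the 10 mnd1.a libraries (adjusted p = 0.00299) and without the Bowman W3.5 group (adjusted p = 0.0303).

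MADS32 (HORVU3Hr1G068900), a cereal gene of floral organ identity, averaged 88.0 ± 14.0 CPM at W5.0 (SD, n = 4) and 27.1 ± 7.57 CPM at W3.5 (SD, n = 3), with a log2 fold change of 1.69 (adjusted p = 0.00863; not called without W3.5 replicate 2). MADS56 (HORVU1Hr1G051660), of the SOC1 type, rose by 2.01 (adjusted p = 0.00721). The 3 members that were lower included both named SVP-type genes, which in cereals hold back the floral meristem programme. MADS47 (HORVU4Hr1G077850) had 37.3, 47.6, 42.4 and 20.5 CPM at W5.0, against 204, 210.2 and 173 CPM at W3.5, and MADS22 (HORVU6Hr1G077300) had 83.8, 74.7, 82.6 and 60.6 CPM at W5.0, against 136, 131 and 124 CPM at W3.5. The groups did not overlap for either gene, and the log2 fold changes were -2.40 (adjusted p = 0.0414) and -0.79 (adjusted p = 0.0421), but both calls were lost in every fit that leaves out a library. The third, HORVU3Hr1G095080, averaged 0.739 ± 0.198 CPM at W5.0 (SD, n = 4) and 2.51 ± 1.02 CPM at W3.5 (SD, n = 3) and was not called without W3.5 replicate 1 or 2.

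**Figure D2:**
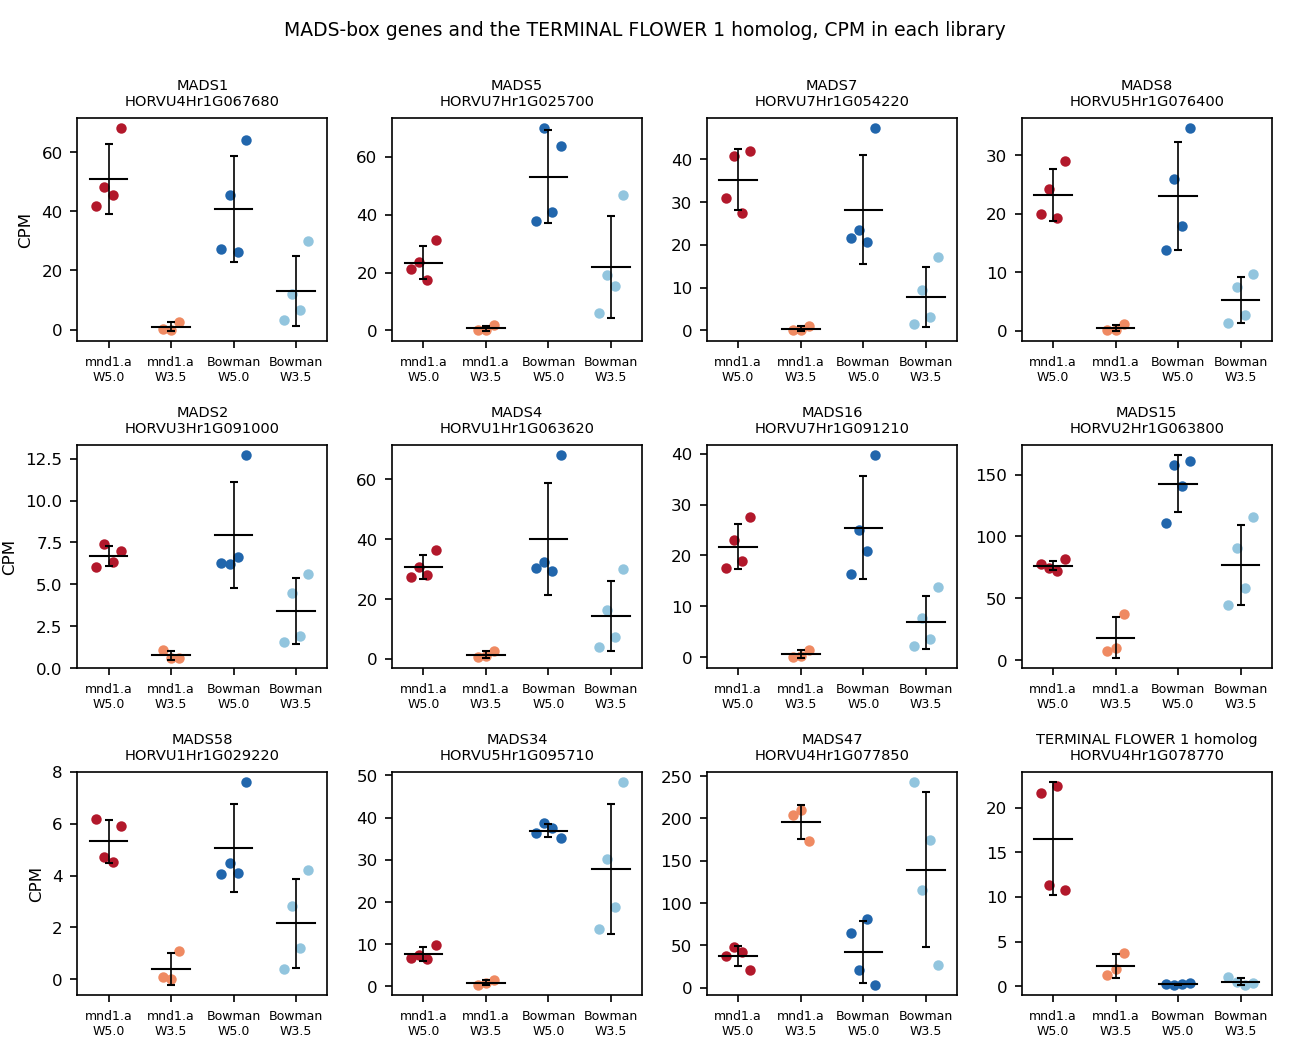
CPM of 11 MADS-box genes and of the TERMINAL FLOWER 1 homolog in each library of mnd1.a W5.0, mnd1.a W3.5, Bowman W5.0 and Bowman W3.5; points are libraries, bars the group mean with its standard deviation, and each panel has its own vertical axis. In mnd1.a the W5.0 libraries of MADS1 lie at 41.7 to 68.1 CPM and those of W3.5 at 0 to 2.68 CPM, while the TERMINAL FLOWER 1 homolog is at 10.8 to 22.4 CPM in mnd1.a W5.0 and near 0 in both Bowman groups.

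The TERMINAL FLOWER 1 homolog (HORVU4Hr1G078770, chromosome 4H, 609002595 to 609004185) rose beside these floral genes. It had 21.6, 11.3, 22.4 and 10.8 CPM at W5.0, against 1.21, 1.91 and 3.72 CPM at W3.5, and 5.73 ± 2.34 CPM in mnd1.a at W2.0 (SD, n = 3). All 4 W5.0 libraries exceeded all W3.5 libraries (log2 fold change 2.84, SE 0.49, adjusted p = 0.00133), and the call held in all 7 fits without 1 library. In Bowman it had 0.222, 0.128, 0.225 and 0.317 CPM at W5.0, against 1.02, 0.498, 0.172 and 0.421 CPM at W3.5. The interaction (the mnd1.a log2 fold change minus that of Bowman) was 4.00 (SE 0.88, adjusted p = 0.0316 in edgeR). That call was not made in limma-voom (adjusted p = 0.231) and held in 6 of the 15 fits that leave out 1 library of the 4 groups. Of the 3 genes of this family that were tested, 1 was higher and 0 lower in mnd1.a.

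Homeobox genes, which include meristem, vascular and spikelet regulators, held 20 higher (25.6%) and 2 lower (2.56%) genes among 78 tested (median log2 fold change 0.18). The count of higher genes was 15 without W3.5 replicate 3, 6 without W3.5 replicate 1, 5 without W3.5 replicate 2, 12 without W5.0 replicate 3 and 9 without W5.0 replicate 4. VRS1 (HORVU2Hr1G092290, chromosome 2H, 652031295 to 652032562), which suppresses the lateral spikelets of 2-rowed barley, had 2.64, 1.78, 3.25 and 2.46 CPM at W5.0, against 0, 0.0795 and 0.854 CPM at W3.5. The next gene model on 2H with the same annotation (HORVU2Hr1G092300, 652093963 to 652095055) had 4.95, 3.63, 4.92 and 4.52 CPM at W5.0, against 0.0711, 0 and 0.549 CPM at W3.5. Both separated the groups, with log2 fold changes of 2.88 (SE 0.81, adjusted p = 0.031) and 4.26 (SE 0.76, adjusted p = 0.00164). VRS1 was called in 2 of the 7 fits without 1 library and not in limma-voom, and the neighbour in all 7. How alike the sequences of these models are was not examined, so whether the counting split reads between them is not known.

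A further homeobox-leucine zipper gene, HORVU2Hr1G095210, had 7.17, 7.03, 6.05 and 9.69 CPM at W5.0, against 1.49, 1.11 and 1.40 CPM at W3.5 (log2 fold change 2.47, SE 0.46, adjusted p = 0.0023). Both WUSCHEL-related homeobox genes named here, of a family that organises meristems and organ margins, were chosen after their values were seen. So were the zinc finger homeodomain genes below. WOX1 (HORVU1Hr1G010580) was higher by 1.78 (adjusted p = 0.0206) and WOX7 (HORVU3Hr1G060950) by 1.57 (adjusted p = 0.0333). The call of WOX1 was lost without W3.5 replicate 2 or 3, and that of WOX7 in 6 of the 7 fits without 1 library. The neighbouring zinc finger homeodomain genes HORVU6Hr1G069090 and HORVU6Hr1G069070, both annotated zinc finger homeodomain 1, averaged 32.3 ± 4.71 and 12.9 ± 1.31 CPM at W5.0 (SD, n = 4), against 19.5 ± 2.36 and 6.73 ± 1.92 CPM at W3.5 (SD, n = 3). Their log2 fold changes of 0.73 (adjusted p = 0.00256) and 0.94 (adjusted p = 0.0029) held in every fit without 1 library. Homeobox-leucine zipper protein 4 (HORVU2Hr1G097940) had 0.904 to 1.39 CPM at W5.0, against 1.78 to 5.31 CPM at W3.5, and fell by 1.57 on the log2 scale (adjusted p = 0.00797; not called without W3.5 replicate 3).

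Of 23 squamosa promoter-binding-like (SPL) genes, which in plants carry the age signal controlled by miR156, 7 (30.4%) were higher and 0 lower. The median log2 fold change was 0.43. At an unadjusted p under 0.05, 1 was lower, and DESeq2 called 9 higher and 0 lower. SPL16 (HORVU5Hr1G076380) had 46.2 to 59.5 CPM at W5.0, against 16.1 to 41.2 CPM at W3.5, and SPL4 (HORVU2Hr1G048280) had 43.4, 40.2, 45.6 and 51.5 CPM at W5.0, against 12.7, 10.6 and 27.2 CPM at W3.5. In both, W3.5 replicate 3 lay nearest to W5.0 without overlapping it. The log2 fold changes were 1.04 (adjusted p = 0.0112) and 1.42 (adjusted p = 0.0354), and neither was called without W3.5 replicate 1 or 2. Leaving out any W5.0 library also lost the call of SPL4. SPL16 was not called in edgeR from only the 10 mnd1.a libraries (adjusted p = 0.0565) or only the 2 groups (adjusted p = 0.095). SPL18 (HORVU5Hr1G076370) and SPL10 (HORVU7Hr1G110960) were higher by 1.23 and 0.98 (adjusted p = 0.00792 and 0.0134). The call of SPL18 was lost without W3.5 replicate 1, and that of SPL10 without W3.5 replicate 1 or 2. SPL2 (HORVU2Hr1G097580) and SPL17 (HORVU0Hr1G020810) did not pass the test, with log2 fold changes of 0.66 and 0.04. The count of SPL genes called higher was 1 without W3.5 replicate 1 and 2 without W3.5 replicate 2, and 1 gene was lower without W3.5 replicate 3.

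Growth-regulating factors, known to prolong cell division in leaves and floral organs, had 4 of 17 members (23.5%) higher and 0 lower (0 lower also at an unadjusted p under 0.05 and by DESeq2). GRF3 (HORVU0Hr1G016590) had 6.68, 6.25, 7.19 and 6.00 CPM at W5.0, against 1.64, 1.43 and 2.14 CPM at W3.5, with a log2 fold change of 1.90 (SE 0.40, adjusted p = 0.00571). GRF10 (HORVU6Hr1G065740) rose by 1.42 (adjusted p = 0.00159), and the 2 genes annotated GRF4, HORVU6Hr1G068370 and HORVU0Hr1G026650, by 1.12 (adjusted p = 0.0231) and 1.53 (adjusted p = 0.0136). The median of the list was 0.10. Without W3.5 replicate 1 or 2, 2 members were called higher, and without W3.5 replicate 3, 1 was lower.

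Of 18 TCP genes, 3 (16.7%) were higher and 0 lower, with a median of 0.35. At an unadjusted p under 0.05, 6 were higher and 0 lower, beside 5435 of 21132 genes in either direction. Without W3.5 replicate 1 or 2 or W5.0 replicate 3 or 4, 1 was called. The gene annotated TEOSINTE BRANCHED 1 on chromosome 4H (HORVU4Hr1G007040), whose maize namesake represses axillary bud growth, had 9.89, 7.87, 8.17 and 7.47 CPM at W5.0, against 3.48, 1.51 and 2.99 CPM at W3.5. Its groups did not overlap and the log2 fold change was 1.64 (SE 0.32, adjusted p = 0.00311). A second gene of that annotation, HORVU5Hr1G000490, stayed at or under 1.82 CPM and had a log2 fold change of 2.25 (adjusted p = 0.0251) that 2 of the 7 fits without 1 library kept. Of the 7 YABBY and carpel genes tested, 2 (28.6%) were higher and 0 lower. CRABS CLAW (HORVU4Hr1G067780), known from rice as the carpel gene DROOPING LEAF, was higher by 1.39 (adjusted p = 0.0449). YABBY6 (HORVU5Hr1G007270) was higher by 0.79 (adjusted p = 0.0476). The call of CRABS CLAW was lost in every fit without 1 library and that of YABBY6 in all but the one without W3.5 replicate 3.

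AP2 and ethylene-responsive factors gave 4 higher (5.41%) and 8 lower (10.8%) genes among 74 tested, beside 5.12% and 5.01% of all genes. The median was -0.08. Without W3.5 replicates 1 and 2 in turn, 2 and 1 were lower, without W3.5 replicate 3, 10, and without a W5.0 library 3 to 8, lowest without replicate 4. The AP2-like gene HORVU1Hr1G011800 had 0.989, 0.772, 1.74 and 1.15 CPM at W5.0, against 16.2, 23.5 and 7.44 CPM at W3.5 and 39.2 ± 5.15 CPM at W2.0 (SD, n = 3). Its groups did not overlap (log2 fold change -3.73, SE 0.83, adjusted p = 0.00978; not called without W3.5 replicate 2). A second AP2-like gene, HORVU7Hr1G116220, averaged 4.20 ± 0.817 CPM at W5.0 (SD, n = 4) and 18.5 ± 8.22 CPM at W3.5 (SD, n = 3), a log2 fold change of -2.13 (adjusted p = 0.00298). The dehydration-response factor DREB1B (HORVU5Hr1G080300) had 0.463 to 0.757 CPM at W5.0, against 2.20 to 9.46 CPM at W3.5 (log2 fold change -3.56, adjusted p = 0.00422).

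Of 27 CONSTANS-like, B-box and clock genes, 1 (3.7%) was higher and 3 (11.1%) lower, beside 5.12% and 5.01% of all genes. The pseudo-response regulator HORVU4Hr1G057550, annotated as number 7 of that clock family, had 121, 111, 118 and 112 CPM at W5.0, against 193, 202 and 162 CPM at W3.5, and fell by 0.68 on the log2 scale (SE 0.12, adjusted p = 0.0016). PPD-H1 (HORVU2Hr1G013400), the photoperiod gene of barley, averaged 111 ± 7.89 CPM at W5.0 (SD, n = 4) and 130 ± 5.17 CPM at W3.5 (SD, n = 3). Its log2 fold change of -0.22 missed the threshold in edgeR (adjusted p = 0.216) and in DESeq2 (adjusted p = 0.221), and passed it in edgeR from only the 10 mnd1.a libraries (adjusted p = 0.0179), from only the 2 groups (adjusted p = 0.0416) and without the Bowman W3.5 group (adjusted p = 0.0434). Samples were taken around midday, per the series' design text.

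Other families of regulators are given by their counts, beside 5.12% of all genes higher and 5.01% lower. Among 57 NAC genes 3 were higher (5.26%) and 1 lower, among 19 WRKY genes 3 (15.8%) and 1, among 95 bHLH genes 8 (8.42%) and 7, and among 96 MYB genes 9 (9.38%) and 4. Chromatin enzymes, 113 tested, had 8 higher (7.08%) and 1 lower. Without W3.5 replicates 1 and 2 in turn, the higher calls were 4 and 2 for bHLH genes, 2 and 1 for MYB genes, 4 and 1 for chromatin enzymes, 2 and 2 for WRKY genes and 1 and 1 for NAC genes. Without a W5.0 library they were 4 to 7 for bHLH genes, 4 to 5 for MYB genes, 2 to 4 for chromatin enzymes, 2 to 3 for WRKY genes and 1 to 3 for NAC genes. Anther, tapetum and pollen genes, 10 tested, had 0 calls in edgeR and 0 in DESeq2, and 1 was called higher without W3.5 replicate 3. At an unadjusted p under 0.05, 2 were higher and 0 lower, beside 5435 of 21132 genes in either direction. Of 7 meiosis genes 0 were higher (0 also unadjusted and in DESeq2) and 1 was lower, a call that 2 of the 7 fits without 1 library kept.

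**Figure D3:**
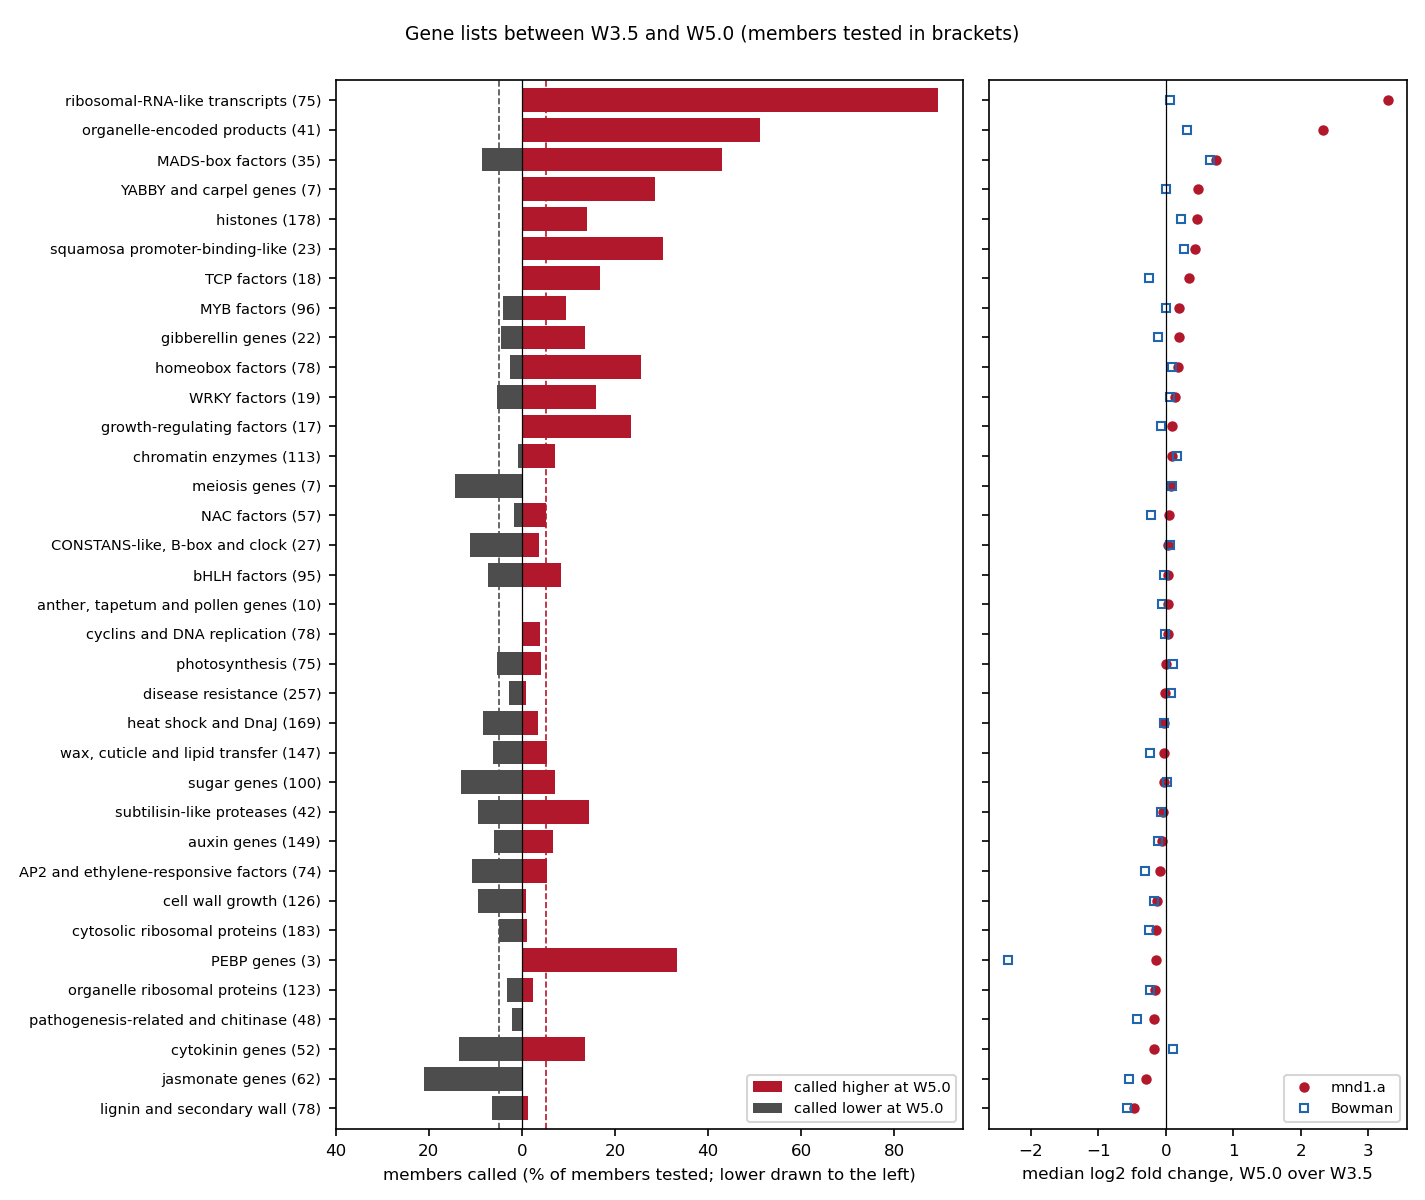
For each of 35 gene lists (members tested in brackets), the left panel shows the percentage of members called higher (red, to the right) and lower (grey, to the left) in mnd1.a at W5.0, with dashed lines at 5.12% and 5.01% for all genes, and the right panel the median log2 fold change of W5.0 over W3.5 in mnd1.a (filled circles) and Bowman (open squares). MADS-box factors have 42.9% of members higher and jasmonate genes 21% lower, and the ribosomal-RNA-like list with 89.3% higher is the one that moves with the library code.

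Jasmonate genes held the highest share of lower calls among the lists. Of 62 tested, 13 (21%) were lower, beside 5.01% of all genes, and 0 higher (0 higher also at an unadjusted p under 0.05 and by DESeq2, which called 13 lower). The median log2 fold change was -0.29. The count of lower genes was 13 without W3.5 replicate 3, 8 without W3.5 replicate 1, 7 without W3.5 replicate 2, and 8 to 12 without a W5.0 library, of which replicate 4 gave 8. Without W3.5 replicate 3, 2 were higher, and 19 of the 62 had a positive log2 fold change. Jasmonate is a lipid-derived hormone made by lipoxygenase and allene oxide synthase, and barley leaves are known to accumulate jasmonate-induced proteins.

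A row of jasmonate-induced protein genes on chromosome 2H, between 30286278 and 30745532, led the fall. HORVU2Hr1G014020 had 131, 120.2, 84.5 and 80.2 CPM at W5.0, against 1528, 2249 and 612 CPM at W3.5. HORVU2Hr1G013980 had 154, 136, 112 and 102 CPM at W5.0, against 1286, 1781 and 682 CPM at W3.5. In both, every W5.0 library lay under every W3.5 library and W3.5 replicate 3 was the lowest of its group, with log2 fold changes of -3.82 (SE 0.54, adjusted p = 0.000271) and -3.31 (SE 0.42, adjusted p = 7.56e-05). HORVU2Hr1G013950 and HORVU2Hr1G013940 fell by 3.22 (adjusted p = 3.69e-05) and 4.42 (adjusted p = 0.00184) on the log2 scale. HORVU2Hr1G013920 stayed at or under 5.88 CPM and had a log2 fold change of -3.26 (adjusted p = 0.031) that was called in 2 of the 7 fits without 1 library. These genes are neighbours of one annotation, and whether counting split reads between them was not tested.

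Of the genes annotated as lipoxygenase or allene oxide synthase, 3 that were lower are described here, chosen after their values were seen. Whether the lipoxygenase genes act in jasmonate synthesis is not given by their annotation and was not tested. Lipoxygenase 1 (HORVU5Hr1G093770) had 49.1, 60, 70.7 and 46.1 CPM at W5.0, against 439, 481 and 331 CPM at W3.5 (log2 fold change -2.88, SE 0.39, adjusted p = 0.000148), and a second gene of that annotation, HORVU5Hr1G093700, had 997 to 1202 CPM at W5.0 and 2986 to 3228 CPM at W3.5. Allene oxide synthase (HORVU4Hr1G066270) had 118, 144, 138 and 117 CPM at W5.0, against 391, 449 and 332 CPM at W3.5. The groups were apart for all 3 genes, and the log2 fold changes of the second lipoxygenase and of allene oxide synthase were -1.49 (adjusted p = 0.0036) and -1.60 (adjusted p = 0.0105), the last not called without W3.5 replicate 2.

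**Figure D4:**
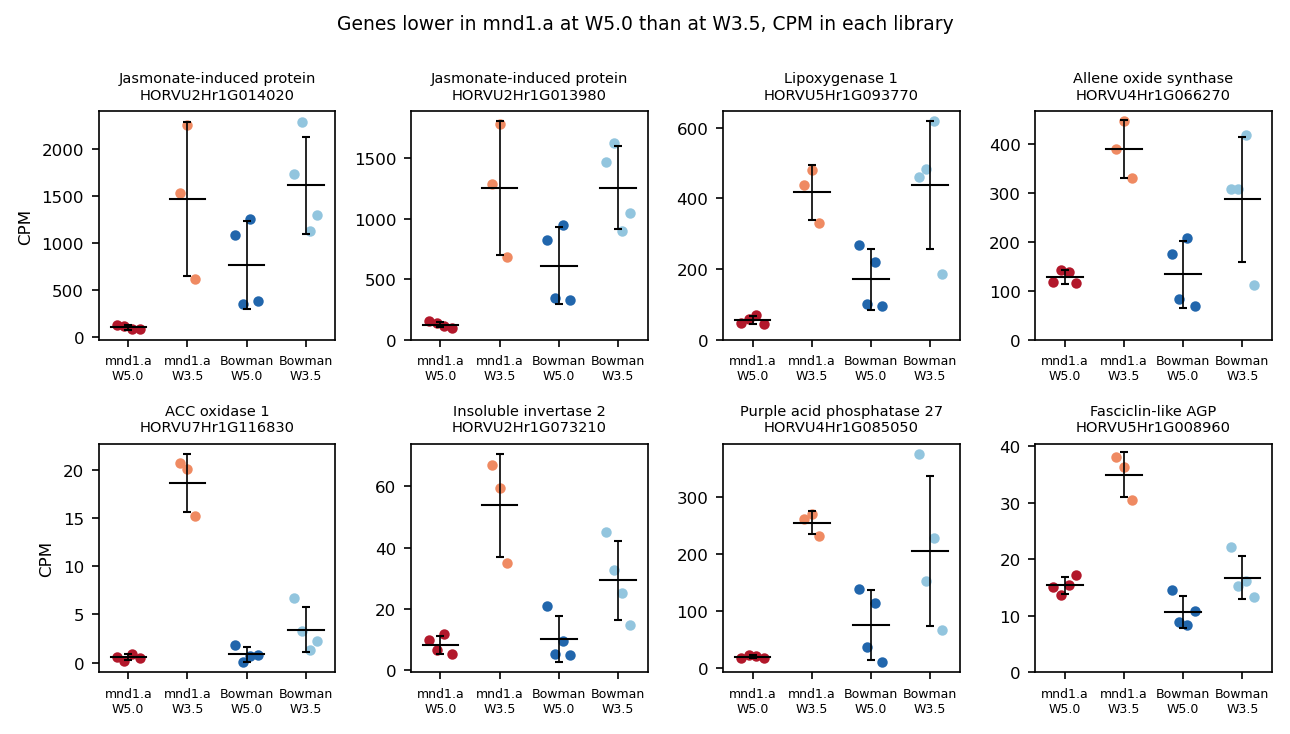
CPM of 8 genes that were lower in mnd1.a at W5.0, in each library of mnd1.a W5.0, mnd1.a W3.5, Bowman W5.0 and Bowman W3.5; points are libraries, bars the group mean with its standard deviation, and each panel has its own vertical axis. The mnd1.a W5.0 libraries of the jasmonate-induced protein gene HORVU2Hr1G014020 lie at 80.2 to 131 CPM and those of W3.5 at 612 to 2249 CPM, and the Bowman groups spread more widely in most panels.

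ACC oxidase and an abscisic acid receptor gene were among the genes with the steepest falls. ACC oxidase 1 (HORVU7Hr1G116830), the last enzyme of ethylene synthesis, had 0.577, 0.154, 0.908 and 0.493 CPM at W5.0, against 20.7, 20.1 and 15.2 CPM at W3.5 (log2 fold change -5.10, SE 0.61, adjusted p = 3.38e-05). The abscisic acid receptor gene PYR1 (HORVU4Hr1G055220) had 0.412, 0, 0.0757 and 0 CPM at W5.0, against 7.54, 6.84 and 1.53 CPM at W3.5 (log2 fold change -5.37, SE 1.00, adjusted p = 0.00239). Both were called in every fit without 1 library, which was a condition of the naming rule for the largest changes. Their mnd1.a levels at W2.0 were 16.0 ± 4.89 and 7.16 ± 0.977 CPM (SD, n = 3).

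Cytokinin genes moved both ways, with 7 higher (13.5%) and 7 lower (13.5%) among 52 tested and a median of -0.18. Without W3.5 replicate 2, 3 were higher, and without W3.5 replicate 1 or W5.0 replicate 4, 4 were lower. A cytokinin-activating LONELY GUY-type phosphoribohydrolase (HORVU5Hr1G086520) had 7.34, 8.72, 10.2 and 11.1 CPM at W5.0, against 1.71, 0.954 and 1.71 CPM at W3.5, a rise of 2.66 on the log2 scale (SE 0.38, adjusted p = 0.000135). A second gene of that enzyme, HORVU3Hr1G066810, moved the other way, with 0.495 to 0.926 CPM at W5.0, against 1.67 to 2.75 CPM at W3.5 (log2 fold change -1.69, adjusted p = 0.0117). Cytokinin dehydrogenase 5 (HORVU3Hr1G075920), which degrades the hormone, was higher by 1.67 (adjusted p = 0.00598), and the response regulator ORR22 (HORVU2Hr1G095530) was lower, with 8.38 ± 1.26 CPM at W5.0 (SD, n = 4) and 17.1 ± 1.02 CPM at W3.5 (SD, n = 3; log2 fold change -1.03, adjusted p = 0.000501).

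Of 22 gibberellin genes, 3 (13.6%) were higher and 1 (4.55%) lower, with 0 lower without W3.5 replicate 1 or 2. A gibberellin 2-oxidase (HORVU3Hr1G072810), which inactivates the hormone, had 3.30, 4.63, 3.10 and 7.47 CPM at W5.0, against 0.853, 0.954 and 1.16 CPM at W3.5 (log2 fold change 2.21, SE 0.39, adjusted p = 0.00135). Of 149 auxin genes, 10 were higher and 9 lower, shares close to those of all genes. Without W3.5 replicates 1, 2 and 3 in turn, 2, 1 and 16 were higher and 4, 2 and 7 lower, and without a W5.0 library 6 to 7 were higher and 2 to 6 lower. A flavin-containing monooxygenase (HORVU5Hr1G086660), of the family to which the YUCCA auxin synthesis enzymes belong, averaged 5.86 ± 2.12 CPM at W5.0 (SD, n = 4) and 0.955 ± 0.387 CPM at W3.5 (SD, n = 3; log2 fold change 2.59, adjusted p = 0.00879; not called without W3.5 replicate 1), and the auxin repressor gene IAA23 (HORVU7Hr1G084940) fell by 1.55 on the log2 scale (adjusted p = 0.00223).

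Sugar genes had 7 (7%) higher and 13 (13%) lower members of 100 tested, beside 5.12% and 5.01% of all genes. Without W3.5 replicates 1 and 2 in turn 6 and 3 were lower, without any W5.0 library 7 or 8, and without W3.5 replicate 3, 11 were higher. The SWEET-type bidirectional sugar transporter N3 (HORVU7Hr1G030160) had 88.8, 136, 85.3 and 123 CPM at W5.0, against 2.63, 3.82 and 32.5 CPM at W3.5. The groups did not overlap, with W3.5 replicate 3 far above the other W3.5 libraries (log2 fold change 3.03, SE 0.66, adjusted p = 0.00859). N3 was not called without W3.5 replicate 2 or in edgeR from only the 2 groups (adjusted p = 0.0631). A trehalose-6-phosphate phosphatase (HORVU2Hr1G029290), of the family of the maize inflorescence gene RAMOSA3, had 12.3, 12.5, 11.9 and 12.4 CPM at W5.0, against 2.84, 2.70 and 3.78 CPM at W3.5 (log2 fold change 1.97, SE 0.42, adjusted p = 0.00647). The cell wall invertase gene HORVU2Hr1G073210, which splits sucrose outside the cell, fell, with 9.81, 6.56, 11.8 and 5.50 CPM at W5.0, against 67.1, 59.4 and 35 CPM at W3.5 (log2 fold change -2.67, SE 0.46, adjusted p = 0.00159).

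Among 126 genes of primary wall growth 1 was higher and 12 (9.52%) lower, with a median of -0.13. Among 78 lignin and secondary wall genes 1 was higher and 5 (6.41%) lower, a share near the 5.01% of all genes, with a median of -0.47. The summed level of the lignin list was 1132 to 1336 CPM at W5.0 and 1582 to 1699.7 CPM at W3.5, so its groups did not overlap. The sums of many other lists did not overlap either, such as the NAC genes (694 to 727 CPM at W5.0, 635 to 649 CPM at W3.5). In Bowman the lignin sums overlapped, with 862 to 1309.8 CPM at W5.0 and 943 to 1788 CPM at W3.5. A fasciclin-like arabinogalactan protein (HORVU5Hr1G008960) had 15.1, 13.7, 15.4 and 17.3 CPM at W5.0, against 38, 36.4 and 30.5 CPM at W3.5 (log2 fold change -1.18, SE 0.17, adjusted p = 0.000148), and a second one, HORVU1Hr1G043080, fell by 3.25 on the log2 scale (adjusted p = 0.000522). Caffeoyl-CoA O-methyltransferase (HORVU7Hr1G049070), an enzyme of lignin monomer synthesis, was lower by 1.12 (adjusted p = 0.000367), laccase 6 (HORVU7Hr1G105620) by 0.83 (adjusted p = 0.0176; not called without W3.5 replicate 1 or 2), pectin acetylesterase 7 (HORVU2Hr1G101640) by 1.35 (adjusted p = 0.00956) and a pectin lyase-like gene (HORVU7Hr1G002110) by 1.25 (adjusted p = 0.00846). The 1 primary wall gene that rose was a xyloglucan endotransglucosylase (HORVU7Hr1G098390), with 8.03 ± 1.28 CPM at W5.0 (SD, n = 4) and 1.51 ± 1.08 CPM at W3.5 (SD, n = 3; adjusted p = 0.00188). Without W3.5 replicates 1 and 2 in turn, 6 and 5 primary wall genes were lower, and without a W5.0 library 6 to 8. Whether the share of stem or base tissue in the samples had a part in these values was not tested.

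Of the wax, cuticle and lipid transfer genes tested, 8 (5.44%) were higher and 9 (6.12%) lower, and without W3.5 replicates 1 and 2 in turn 4 and 3 were higher and 1 and 1 lower. Without a W5.0 library 4 to 7 were higher and 2 to 4 lower. A GDSL lipase (HORVU7Hr1G076290) rose by 3.07 on the log2 scale (adjusted p = 0.00102), and a lipid-transfer protein (HORVU1Hr1G054040) had 11, 9.42, 10.4 and 10.8 CPM at W5.0, against 57.5, 53.4 and 27.1 CPM at W3.5 (log2 fold change -2.14, SE 0.45, adjusted p = 0.00612). Of 42 subtilisin-like proteases, 6 (14.3%) were higher, 3 without W3.5 replicate 2, and 4 (9.52%) were lower. HORVU1Hr1G057080 had 3.30, 3.09, 3.33 and 3.12 CPM at W5.0, against 0, 0.0795 and 0.0610 CPM at W3.5, where the group held 2 counts in all (adjusted p = 0.00011). The ratio of its counts per total was 69.9 (W5.0 over W3.5; exact 95% counting interval 19.0 to 582, from 162 counts at W5.0 and 2 at W3.5). HORVU2Hr1G102920 fell to 2.13 ± 0.509 CPM at W5.0 (SD, n = 4), against 14.0 ± 2.94 CPM at W3.5 (SD, n = 3; adjusted p = 0.00112).

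Histone genes, whose transcripts accumulate in cells that copy their DNA, had 25 of 178 members (14%) higher and 0 lower (0 lower also at an unadjusted p under 0.05 and by DESeq2, which called 40 higher). Their median log2 fold change was 0.47 and 171 of the 178 were above 0. The summed histone level was 30398 to 34013 CPM at W5.0 and 21992 to 23810.0 CPM at W3.5, with no overlap, as for the sums of many other lists. By code, 6 of the 25 called members separate the libraries, beside 218 of the 2140 genes called. Among those tested, 12 of the 178 histones do, beside 369 of 21132 genes. The number of histones called depended on single libraries, with 13 without W3.5 replicate 3, 3 without W3.5 replicate 1, 1 without W3.5 replicate 2, and 10, 7, 13 and 5 without W5.0 replicates 1, 2, 3 and 4. Histone gene HORVU6Hr1G011030 averaged 2.87 ± 0.335 CPM at W5.0 (SD, n = 4) and 0.606 ± 0.349 CPM at W3.5 (SD, n = 3; log2 fold change 2.20, adjusted p = 0.00203). Cyclin and DNA replication genes had 3 of 78 members higher (3.85%, beside 5.12% of all genes) and 0 lower, with a median of 0.03. At an unadjusted p under 0.05, 10 were higher and 1 lower, beside 5435 of 21132 genes in either direction. DESeq2 called 5 higher and 0 lower. In edgeR, 1 was higher without W3.5 replicate 1 or W5.0 replicate 4. Cyclin-D6-1 (HORVU0Hr1G003280) had 8.90, 10.1, 10.7 and 10.6 CPM at W5.0, against 2.84, 2.70 and 5.55 CPM at W3.5 (log2 fold change 1.43, SE 0.28, adjusted p = 0.00287).

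Cytosolic ribosomal protein genes, 183 tested, had 2 higher (1.09%) and 9 lower (4.92%) members, beside 5.12% and 5.01% of all genes. Their median was -0.14, but 54 were lower without W3.5 replicate 3, and 2 to 5 without any other single library of the step. Organelle ribosomal protein genes, 123 tested, had 3 higher (2.44%) and 4 lower (3.25%), and 26 lower without W3.5 replicate 3 and 0 without any other single library of the step. The largest fall in the cytosolic list, the 60S protein L14-1 (HORVU2Hr1G089090), separates the libraries by code: 0.530 to 2.39 CPM in mnd1.a W5.0, against 106 to 208 CPM in mnd1.a W3.5, and 3.50 ± 3.73 CPM in mnd1.a W2.0 (SD, n = 3), which shares the code of W5.0.

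Photosynthesis genes had 3 of 75 members higher (4%) and 4 lower (5.33%), beside 5.12% and 5.01% of all genes. Their median was 0.00, and 1 to 5 were higher and 0 to 2 lower without any single library of the step. Their summed level was 1571 to 2343 CPM at W5.0 and 1690.1 to 2431 CPM at W3.5, so the groups overlapped. The share of leaf in the samples was not measured. Of the 3 higher members, a chlorophyll a-b binding protein (HORVU7Hr1G040380) had 3.96, 8.96, 6.28 and 4.60 CPM at W5.0, against 0.498, 0.0795 and 1.10 CPM at W3.5. It rose by 3.34 on the log2 scale (SE 0.60, adjusted p = 0.00171). The 4 lower members are not named here, so this gene does not stand for the list. Heat shock and DnaJ genes had 6 of 169 members higher (3.55%) and 14 lower (8.28%). Without 1 library, 0 to 6 of them were higher and 4 to 12 lower, both lowest without W3.5 replicate 2. Pathogenesis-related genes and chitinases had 0 of 48 higher (1 at an unadjusted p under 0.05, 0 by DESeq2) and 1 lower (2.08%). Disease resistance genes had 2 of 257 higher (0.778%) and 7 lower (2.72%), with 16 higher and 6 lower without W3.5 replicate 3. Without W3.5 replicates 1 and 2 in turn, 1 and 0 disease resistance genes were higher and 2 and 2 lower, and without a W5.0 library 0 to 2 were higher and 1 to 4 lower, lowest without replicate 4.

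Among the genes outside these lists that the naming rule picked by size, several had almost no reads at W3.5 and a clear level at W5.0. An rRNA N-glycosidase (HORVU4Hr1G089850), of the ribosome-inactivating protein family, had 23.4, 35, 21.3 and 47.1 CPM at W5.0, against 0.284, 0.318 and 1.10 CPM at W3.5 (log2 fold change 5.72, SE 0.67, adjusted p = 2.87e-05). A polyamine oxidase (HORVU4Hr1G071450) had 17.6, 19.3, 15.6 and 31.6 CPM at W5.0, against 0, 0 and 1.89 CPM at W3.5 (log2 fold change 4.92, SE 0.89, adjusted p = 0.00277). The ubiquitin ligase gene SINA-like 11 (HORVU3Hr1G005430) had 5.52, 9.19, 5.98 and 12.3 CPM at W5.0, against 0, 0 and 0.305 CPM at W3.5 (log2 fold change 6.07, SE 1.01, adjusted p = 0.00104). The naming rule took only genes whose groups did not overlap, so their separation was fixed by the choice. In each of these genes replicate 3 was the highest at W3.5.

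A gene annotated only as transcription factor-related, HORVU5Hr1G073410, had 9.98, 14.8, 12.8 and 20.9 CPM at W5.0, against 0, 0 and 0.122 CPM at W3.5 (adjusted p = 0.000304). The ratio of its counts per total was 317 (W5.0 over W3.5; exact 95% counting interval 87.6 to 2626, from 736 counts at W5.0 and 2 at W3.5). A SKP1-like 4 gene (HORVU5Hr1G084140), of the family of ubiquitin ligase adaptors, had 3.38, 7.57, 3.78 and 10.9 CPM at W5.0, against 0.142, 0 and 0 CPM at W3.5 (adjusted p = 0.00023). The ratio of its counts per total was 139 (W5.0 over W3.5; exact 95% counting interval 38.1 to 1152, from 322 counts at W5.0 and 2 at W3.5). A second SKP1-like 4 gene, HORVU6Hr1G000660, moved the other way and separates the libraries by code, with 0.907 to 8.33 CPM at W5.0 and 47.3 to 60.7 CPM at W3.5.

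Of the genes that fell, purple acid phosphatase 27 (HORVU4Hr1G085050) had 18.5, 22.9, 22.2 and 17.9 CPM at W5.0, against 261, 270.1 and 232 CPM at W3.5 (log2 fold change -3.64, SE 0.63, adjusted p = 0.00171). It stood at 253 ± 28.5 CPM in mnd1.a at W2.0 (SD, n = 3). A Bowman-Birk type trypsin inhibitor (HORVU3Hr1G004190) and an O-methyltransferase (HORVU7Hr1G117890) had at most 0.495 and 1.82 CPM at W5.0, against at least 2.75 and 6.26 CPM at W3.5. Their log2 fold changes were -4.38 (adjusted p = 0.00509) and -3.47 (adjusted p = 0.00311). Limma-voom did not call the trypsin inhibitor gene (adjusted p = 0.118).

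In Bowman the same step called 1604 genes (7.59%), 822 higher (3.89%) and 782 lower (3.7%), from libraries that share no sample with those of mnd1.a. Both steps were tested in 1 fit, where all 21 libraries share the estimate of spread of each gene. The calls of the lines are therefore not independent. 393 genes were called in both lines, 18.4% of the mnd1.a calls and 24.5% of the Bowman calls, and 385 of them had the same direction. The Bowman count was far less stable, from 29 without W5.0 replicate 2 to 3523 without W3.5 replicate 4. Of the MADS-box genes 3 were called higher and 2 lower in Bowman, with a median log2 fold change of 0.65, where 0.75 was found in mnd1.a. The Bowman W3.5 libraries already held floral MADS transcripts at levels that differed between replicates: MADS1 averaged 40.8 ± 17.9 CPM at W5.0 and 13.0 ± 11.9 CPM at W3.5 in Bowman (SD, n = 4 each), and MADS7 28.3 ± 12.7 and 7.79 ± 7.08 CPM. Jasmonate genes had 0 higher and 4 lower in Bowman with a median of -0.54, and histones 1 higher and 0 lower with a median of 0.23.

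The test of the difference between the lines called 215 genes (1.02%), 155 (0.733%) with a more positive change in mnd1.a and 60 (0.284%) with a more negative one. The library code changes with the step in mnd1.a and not in Bowman, and 125 of the 215 genes separate all libraries by code. 53 of the 215 are ribosomal-RNA-like and 7 organelle-encoded. The other 90 genes were split into 47 more positive and 43 more negative. Of the MADS-box genes, 0 were called in this test (11 more positive and 1 more negative at an unadjusted p under 0.05, 1 and 0 by DESeq2), so the larger fold changes in mnd1.a are not shown to differ from those in Bowman.

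Of the genes called in this test that do not separate by code, 3 named here were called in all 22 alternatives tried: an invertase gene, glutamine dumper 4 and a dihydroflavonol reductase-like gene. The TERMINAL FLOWER 1 homolog given above was called in edgeR and DESeq2 but not in limma-voom. The invertase gene HORVU2Hr1G109120 had 0.989, 0.849, 1.44 and 0.164 CPM in mnd1.a W5.0, against 3.2, 8.03 and 1.89 CPM in mnd1.a W3.5 (log2 fold change -2.30, adjusted p = 0.0149; not called without W3.5 replicate 2 or in limma-voom). In Bowman it had 27.9, 22.8, 18.2 and 9.64 CPM at W5.0, against 6.33, 2.90, 4.09 and 3.96 CPM at W3.5 (log2 fold change 2.18, adjusted p = 0.0185). It is the gene with opposite calls in the 2 lines among those named here, with no overlap in either line and an interaction of -4.47 (SE 0.69, adjusted p = 0.00123). SINA-like 4 (HORVU3Hr1G018420) had 2.89, 3.40, 1.67 and 3.45 CPM in mnd1.a W5.0, against 0, 0 and 0.427 CPM in mnd1.a W3.5. In Bowman it averaged 6.21 ± 1.98 CPM at W5.0 and 6.84 ± 4.51 CPM at W3.5 (SD, n = 4 each), and the interaction was 4.21 (SE 0.94, adjusted p = 0.0362), a call not made in limma-voom (adjusted p = 0.289) and kept in 6 of 15 fits without 1 library.

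The homeobox-leucine zipper gene HORVU2Hr1G095210 showed the same layout, rising in mnd1.a while Bowman averaged 7.87 ± 1.24 CPM at W5.0 and 8.40 ± 6.24 CPM at W3.5 (SD, n = 4 each; interaction 2.55, adjusted p = 0.0386). That interaction was not called in limma-voom (adjusted p = 0.196) and was called in 3 of 15 fits without 1 library. The zinc finger homeodomain genes HORVU6Hr1G069090 and HORVU6Hr1G069070 also had positive interactions, 0.85 (adjusted p = 0.0285) and 1.04 (adjusted p = 0.0472), called in 8 and 3 of the 15 fits. Among genes with negative interactions, glutamine dumper 4 (HORVU0Hr1G022020), of a family that acts on amino acid export in Arabidopsis, had 0.660, 0.772, 0.757 and 1.40 CPM in mnd1.a W5.0, against 7.89, 8.59 and 3.66 CPM in mnd1.a W3.5. It averaged 6.00 ± 0.877 CPM in Bowman W5.0 and 6.80 ± 2.12 CPM in Bowman W3.5 (SD, n = 4 each; interaction -2.71, SE 0.42, adjusted p = 0.00088). A dihydroflavonol reductase-like gene (HORVU5Hr1G023460), a solute carrier family 22 gene (HORVU2Hr1G040800) and the jasmonate-induced protein gene HORVU2Hr1G013950 had interactions of -3.39 (adjusted p = 0.00891), -3.01 (adjusted p = 0.0411) and -2.56 (adjusted p = 0.0145). They were called in 15, 4 and 14 of the 15 fits, and the solute carrier gene was not called in limma-voom.

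**Figure D5:**
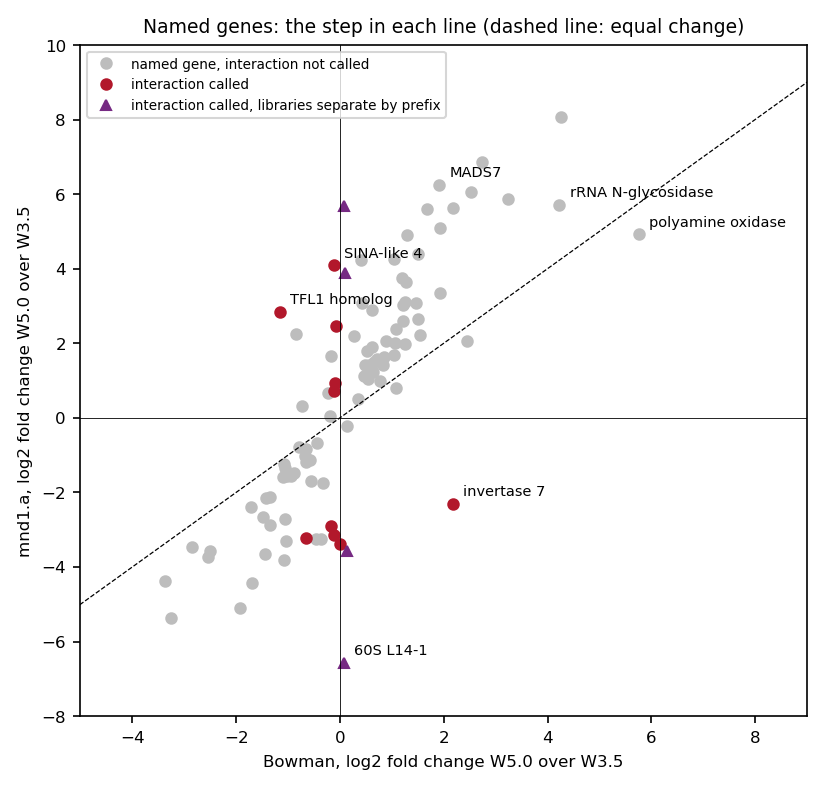
The log2 fold change of W5.0 over W3.5 in mnd1.a (vertical axis) and in Bowman (horizontal axis) for the 100 named genes with counts in both mnd1.a groups; grey points were not called in the test of the difference between the lines, red points were, and purple triangles were called and separate the libraries by code. The invertase gene HORVU2Hr1G109120 lies at -2.30 in mnd1.a and 2.18 in Bowman, and the TERMINAL FLOWER 1 homolog at 2.84 in mnd1.a and -1.16 in Bowman.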

How the data were processed

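RNA from enriched inflorescence tissue, extracted with TRIzol and a column kit and treated to remove DNA, was sequenced as Illumina libraries, per the labels. The authors' table holds estimated counts for 24318 genes, made with Salmon per the file headers, together with the authors' deposited log2 fold changes and per-sample values. Per the submitters' processing notes, limma, GATK and BWA 0.7.15 are named as well, in roles and an order not stated. The name of the genome build and whether counting used strand are not given in the sources used here, so a gene and an antisense partner cannot be told apart, and positions are those of the deposited table. Of 42 columns of per-sample values, 21 columns of estimated counts were used and 21 were not. Columns name line and stage but no library code, so replicate numbers only name a library. The stage headed W3.0 in the count columns was taken as W3.5: log2 fold changes between the lines refitted from these columns correlated across genes at r = 0.912 with the W3.5 values of the authors' deposited table, and at most at 0.499 between any 2 different stages; genes are not independent replicates.

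Estimated counts, 94.9% of which were not whole, were rounded. Genes were kept by filterByExpr (minimum count 10, minimum total 15), leaving 21132 and removing 3186. A model with a mean for each of 6 groups was fitted to 21 libraries in edgeR 4.0.16 (R 4.3.3) with TMM scaling and the robust quasi-likelihood F test. Adjusted p-values are Benjamini-Hochberg over all genes tested, a call is an adjusted p under 0.05, and standard errors (SE) come from the F statistic. CPM is TMM-scaled and not per length, so levels are not compared between genes. A fold against a group at 0 is a bound at a floor of 3 counts over the group; intervals and floors cover counting error only. 1713 genes have no annotation, and 549 transcripts have the counts of another, so near-identical copies are uncertain. The fit was tested on simulated counts before use.

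The members, the 35 gene lists (word patterns on annotations) and the comparisons were chosen with earlier results of these data known. Named genes are those with the largest changes called in every fit without 1 library (12 in each direction, at least 5 CPM, no overlap), up to 4 per list and direction, those with the largest interactions, and set genes of flowering and spike form. Another 17 of the 101 were named after their values were seen: MADS2, MADS3, MADS4, MADS15, MADS18, MADS32, MADS56, MADS58, both lipoxygenase genes, allene oxide synthase, HORVU2Hr1G013950, both WUSCHEL-related, both zinc finger homeodomain genes and HORVU5Hr1G000490. Alternatives were DESeq2 1.42.0, limma-voom (limma 3.58.1), other scalings, filters, thresholds and sets of libraries, and leaving out each library.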

Additional observations from a re-analysis of the deposited data

Results flagged for a closer look

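Among 303 groups of 4 library values looked at, 20 had 1 library far from the other 3 by Dixon's criterion; chance gives about 5% of groups. In mnd1.a W5.0, replicate 2 was low for MND1 (2.39 CPM, the others 5.90 to 6.02) and high for SPL18 (HORVU5Hr1G076370, 10.1 CPM), replicate 3 was high for DREB1B (HORVU5Hr1G080300, 0.757 CPM), and replicate 4 was high for glutamine dumper 4 (HORVU0Hr1G022020, 1.40 CPM). In Bowman W5.0, replicate 4 was high for MADS7 (47.3 CPM), MADS2 (12.7 CPM), MADS4 (68.1 CPM), MADS58 (7.61 CPM), CRABS CLAW (24.3 CPM), YABBY6 (5.77 CPM) and the LONELY GUY-type gene HORVU5Hr1G086520 (8.69 CPM). Replicate 3 of that group was high for HORVU2Hr1G013920 (4.05 CPM), and replicate 1 was the sole library above 0 for PYR1 (0.443 CPM) and HORVU5Hr1G000490 (0.0443 CPM). In Bowman W3.5, replicate 1 stood apart for VRN-H1 (184 CPM), glutamine dumper 4 (9.97 CPM), photosystem II protein D1 HORVU2Hr1G121820 (0 CPM) and HORVU6Hr1G069070 (6.90 CPM), replicate 3 for HORVU3Hr1G095080 (5.73 CPM) and replicate 4 for HORVU7Hr1G049070 (29.2 CPM).

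In edgeR's test of the interaction 215 genes were called between mnd1.a and Bowman. Those named had interaction log2 fold changes of 4.00 for the TERMINAL FLOWER 1 homolog, 4.21 for SINA-like 4, 2.55 for HORVU2Hr1G095210, 0.85 for HORVU6Hr1G069090, 1.04 for HORVU6Hr1G069070, -4.47 for the invertase gene HORVU2Hr1G109120, -3.39 for HORVU5Hr1G023460, -2.71 for glutamine dumper 4, -3.01 for HORVU2Hr1G040800 and -2.56 for HORVU2Hr1G013950. For 4 further genes the libraries separate by code: 3.78 for HORVU2Hr1G053660 and 5.6 for HORVU0Hr1G024170, both ribosomal-RNA-like, -6.65 for the 60S protein gene HORVU2Hr1G089090 and -3.71 for the SKP1-like gene HORVU6Hr1G000660. Their adjusted p-values were 1.31e-08, 2.19e-08, 0.00434 and 0.00341.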

How the results depend on the processing

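The count of 2140 genes called in mnd1.a was 2681 with DESeq2, 1728 with limma-voom, 4457 from only the 10 mnd1.a libraries, 3689 from only the 2 groups and 467 at an adjusted p under 0.01 and at least 2-fold; without 1 library it was 796 to 2741. The Bowman count of 1604 was 2530 with DESeq2, 1654 with limma-voom, 3 at the stricter threshold and 29 to 3523 without 1 library. From only the 2 Bowman groups edgeR called 0 genes, with 3413 at an unadjusted p under 0.05. The count of 215 for the difference between the lines was 483 with DESeq2, 103 at the stricter threshold and 136 to 293 without 1 library. In alternatives chosen after seeing the data, it was 111 without ribosomal-RNA-like and organelle-encoded transcripts and 90 without the genes that separate by code, where the mnd1.a count was 1974 and 1922. The share of higher calls for the difference was 72.1%, 58.0% with DESeq2 and 52.2% without genes that separate by code. The cause of these differences was not tested.

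Of 101 named genes, 96 were called and 62 of these were called in all of 17 alternatives. Over 1713 values of a gene under an alternative, 115 lost the call and 7 gained it. Direction was compared for the called genes only, and 0 of their values changed it. SPL17, which was not called, had log2 fold changes from -0.01 to 0.1 over the alternatives. Limma-voom did not call 14 of the named genes called in edgeR, among them MADS3, MADS5, MADS6, MADS34, MADS47, VRS1 and WOX7. Of 14 interactions of named genes, 6 were called in all alternatives and 5 were not called in limma-voom. The median over all genes stayed between -0.01 and 0.01. No paired analysis was possible because the count columns carry no replicate number that the labels tie to a sample. Genes of a few counts at W3.5, where 3 counts over the group are 0.0687 CPM, have uncertain fold changes.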
